A study of Rattus norvegicus with 22 samples.

Results

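The EGF receptor family and its ligands were examined in rat tongue as a set of 10 genes: the receptors Egfr, Erbb2 and Erbb3 and the ligands Areg, Ereg, Hbegf, Tgfa, Nrg1, Egf and Btc. Each was taken by its gene name on a 1-colour 60-mer oligonucleotide array, and where a gene had several probes the brightest over all 22 arrays stood for it. All 10 were on the array, with 14 probes between them, out of 19167 named genes and 30367 probes. The samples came from 11 male F344 rats that had drunk 20 ppm 4-nitroquinoline 1-oxide (4-NQO), an oral carcinogen, for 10 weeks. They were about 33 weeks old at the planned end of the study. The study's methods allowed earlier euthanasia where a large oral cancer was suspected, and give no age for single rats. Each rat gave 1 oral squamous cell carcinoma (OSCC) of the tongue and 1 piece of neighbouring tongue of normal appearance, so the 11 normal pieces were also from rats that had received the carcinogen. The sample titles call the animals of all 22 arrays untreated, tumours included, and the treatment entry is none for normal pieces and 4-NQO for OSCC, while the protocol takes both from 4-NQO-treated rats. Values are log2 signals minus the 75th percentile of the same array, and a difference is OSCC minus normal in the same rat on that scale.

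The family works as a set of paired parts. Ligands are made as membrane-anchored precursors, are cut free at the cell surface by proteases of the ADAM family, and bind receptors that join in pairs and phosphorylate each other. Amphiregulin, epiregulin, heparin-binding EGF, TGF-alpha, betacellulin and EGF bind EGFR, neuregulin 1 binds ERBB3 and ERBB4, and ERBB2 binds no ligand of its own but is a favoured partner of the others. In stratified epithelium the family is known for driving keratinocyte growth and wound closure.

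On 2 features of the arrays every result below depends. All normal pieces lay on slides 1 to 3 and all OSCC on slides 4 to 7, so slide and tissue cannot be told apart. The OSCC of animals 4 and 9 were scanned on the same day as all 11 normal pieces and the other 9 OSCC on another day. The whole array was centred slightly below 0, with a median difference over all probes of -0.24 (-0.03 after quantile normalization). Each tissue was a mixture: the basal squamous keratinocyte markers summed to 7.85 to 8.50 in normal pieces and 5.06 to 9.05 in OSCC, the lowest value being animal 24. A marker sum here is the log2 of the added unlogged signals of a list, so the brightest genes weigh most in it. A difference was called where it was at least 2-fold with a Benjamini-Hochberg adjusted p under 0.05 over all probes, in a limma fit with the rat as a term. The basal squamous markers went both ways: of 7, Itga6 (1.77) and Cdh3 (1.07) were called higher and Krt15 (-2.54) lower in OSCC. In OSCC 6 of 10 skeletal muscle markers were called lower and 1 higher. Called higher were 8 of 8 serous gland, 5 of 7 neutrophil and 6 of 7 fibroblast markers, and 0 of 7 proliferation markers were called either way. In such bulk pieces, fewer cells of a type and less RNA per cell cannot be told apart.

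Of the 10 genes, 5 were called higher in OSCC and 0 lower. Across all named genes 7.48% were called higher and 7.24% lower by the same rule. That base of 19167 genes includes 4622 that were well above background on no array, against 0 of the 10. The 10 were chosen with earlier results of these data known, so these shares are a description. All 5 were ligands: Areg, Hbegf, Nrg1, Ereg and Tgfa. The receptors and the ligands Egf and Btc were not called. Any-size differences with an adjusted p under 0.05 were found for 8 of the 10 genes, against 45.0% of all named genes. The median difference over the 10 was 0.92, and over all named genes it was -0.21.

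**Figure D1:**
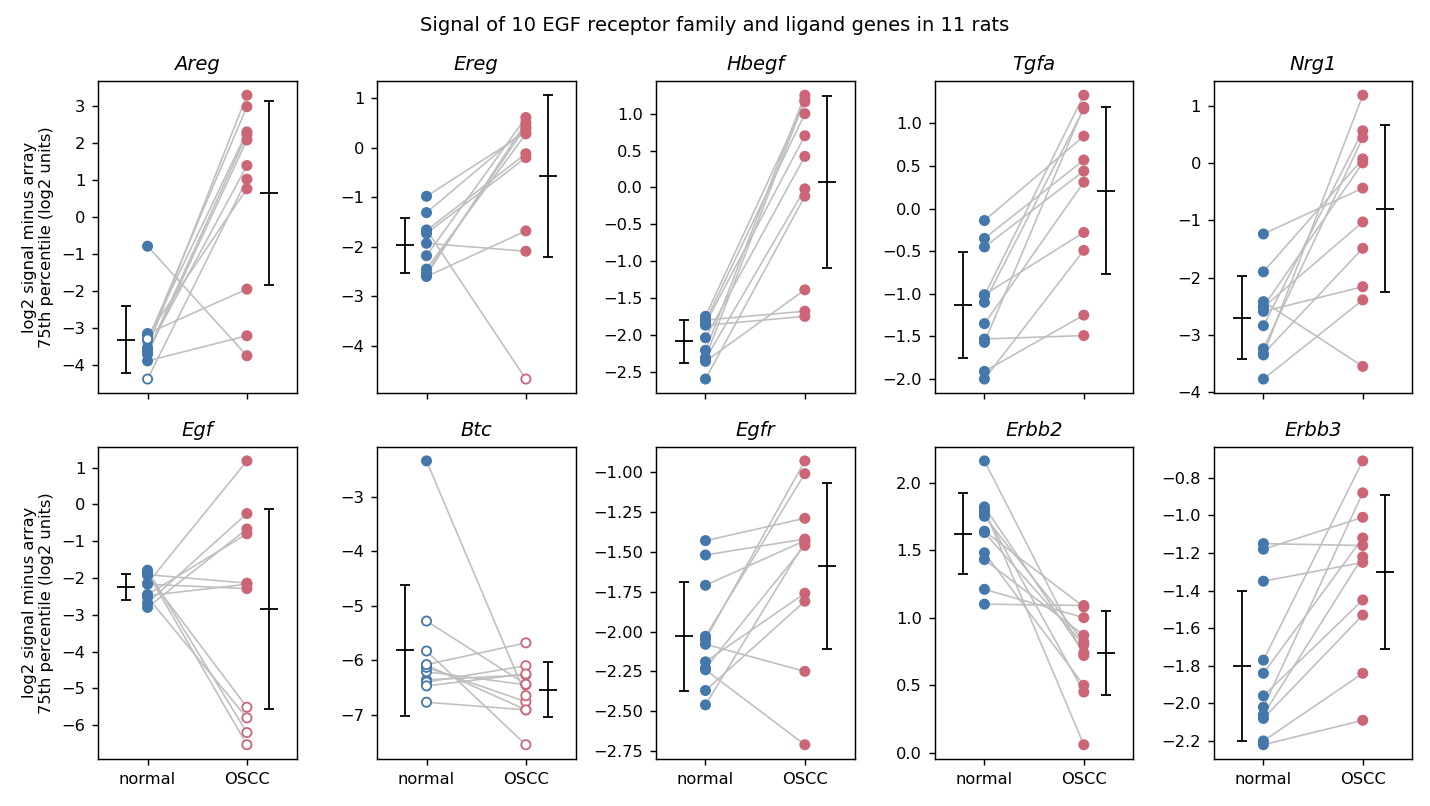
Signal of each gene in the 11 normal pieces (blue) and the 11 OSCC (red), as log2 signal minus the array's 75th percentile. Lines join the pieces of 1 rat, open circles are arrays where the probe was not well above background, and black bars give mean and SD; vertical scales differ between genes. Hbegf and Erbb2 are the genes whose tissues do not overlap.

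Amphiregulin (Areg), an EGFR ligand of barrier tissues, had the largest change of the 10. Its probe lies at chr14:18466438-18466497 of rn4, the rat build in the scanner files. In the normal pieces the signal ran from -4.39 through a median of -3.54 to -0.80, and the probe was well above background by the scanner software on 8 of 11 arrays. In OSCC it ran from -3.76 through 1.38 to 3.28, above background on all 11. In 8 rats the OSCC value was 0.75 or higher and exceeded every normal piece, whereas animals 17, 22 and 24 had OSCC values of -1.96, -3.22 and -3.76, inside the normal range. The mean difference was 3.97 ± 0.82 (SE, n = 11 pairs; 95% interval 2.19 to 5.75), or 15.7-fold, with a limma adjusted p of 0.00313. Higher OSCC values were seen in 10 of 11 pairs, the exception being animal 24, where the normal piece was the brightest normal (-0.80) and the OSCC the dimmest OSCC.

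The promoter of Areg is shown because it was the largest responder and the only member with a cAMP response element among the windows examined. RefSeq windows of 250 bases before and 50 after the start were found for 7 of the 10 genes (GRCr8). In the lines below capitals mark matches, on either strand, to the cAMP response element (TGACGTCA), the TATA box (TATAAA), the GC box (GGGCGG) and the AP-1 site (TGANTCA). No pair of matches overlapped. The sequence is that of chr14:17265592-17265891, minus strand.
Areg: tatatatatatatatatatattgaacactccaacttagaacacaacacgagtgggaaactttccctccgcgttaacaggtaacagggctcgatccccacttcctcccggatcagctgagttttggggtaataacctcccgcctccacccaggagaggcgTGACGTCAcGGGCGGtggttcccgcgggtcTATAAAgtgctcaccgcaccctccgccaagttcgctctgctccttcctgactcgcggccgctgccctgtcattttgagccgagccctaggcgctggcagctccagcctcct
The element of Areg began 91 bases before the start, the GC box 82 and the TATA box 61 bases before it. TGACGTCA was found in 1.83%, TATAAA in 14.2%, GGGCGG in 33.1% and TGANTCA in 7.33% of 33469 rat promoter windows of that length. TGANTCA was in none of the 7 windows of this family. A match is a run of letters and was not tested as a binding site.

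Epiregulin (Ereg), a close relative of amphiregulin that also binds ERBB4, rose less. Normal values ran from -2.60 through -1.93 to -0.98 and OSCC values from -4.67 through 0.28 to 0.61. The OSCC of 8 rats lay between -0.20 and 0.61, above all normal pieces, while those of animals 17, 22 and 24 lay at -2.09, -1.68 and -4.67. The probe was not well above background in the OSCC of animal 24. The difference was 1.40 ± 0.48 (SE, n = 11 pairs), or 2.63-fold, with a limma adjusted p of 0.0348 and 9 of 11 pairs higher. This call is the least firm of the 5: with 1 pair left out it kept its side of the threshold only when the pair was 17, 22 or 24, and after quantile normalization it was 1.29 with an adjusted p of 0.0889 (range over 26 alternatives 0.00103 to 0.329).

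The Ereg probe is shown because it is the single measure of this gene. It has 60 bases, but its rn4 coordinates, chr14:18521343-18522341, span 999 bases. A probe that crosses an intron would have such a span, but intron positions were not given in the sources used here.
Ereg probe: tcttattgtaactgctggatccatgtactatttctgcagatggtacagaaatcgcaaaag

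On rn4 the probes of Btc, Areg and Ereg lie in a row on chromosome 14, Btc 232.8 kb to one side of Areg and Ereg 55.4 kb to the other. Betacellulin was near background. A probe at 108.1 kb, which the files describe as similar to epigen, a further EGFR ligand, had a difference of 1.17 (95% interval -0.26 to 2.60, limma adjusted p 0.156) and was not called. Within 500 kb of Areg there were 17 probes, of which 8 were called higher and 0 lower, against 6.86% called higher of all probes on the array. Areg and Ereg were themselves among the 8, so 6 of the 14 probes of other genes were called, including the neutrophil chemokines Cxcl1 (3.49) and Cxcl2 (5.99). This window was chosen after the values were seen.

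Heparin-binding EGF (Hbegf), an EGFR and ERBB4 ligand induced in wounds, rose in every pair. Its probe lies at chr18:29143627-29143686 of rn4. Normal values were tightly spaced, from -2.60 through -2.04 to -1.75, and OSCC values ran from -1.75 through 0.42 to 1.25. Before rounding the dimmest OSCC was still brighter than the brightest normal piece, so the tissues did not overlap, which held for 0.694% of all named genes with OSCC higher. The difference was 2.16 ± 0.33 (SE, n = 11 pairs; 95% interval 1.43 to 2.88), or 4.46-fold, with a limma adjusted p of 0.000691. The rise was only 0.12 in animals 17 and 24 and 0.98 in animal 22, against 2.32 to 3.50 in the other 8 rats.

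TGF-alpha (Tgfa), an EGFR ligand made by keratinocytes themselves, was also higher in 11 of 11 pairs on its probe at chr4:120437505-120437564 of rn4. Normal values ran from -2.00 through -1.10 to -0.14 and OSCC values from -1.49 through 0.44 to 1.33, so the tissues overlapped. The difference was 1.34 ± 0.24 (SE, n = 11 pairs), or 2.54-fold, with a limma adjusted p of 0.00141. It ranged from 0.03 in animal 24 to 2.77 in animal 11.

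A second Tgfa probe, 5.30 kb upstream of the first on rn4, gave a smaller difference of 0.61 ± 0.15 (SE, n = 11 pairs), 1.53-fold, with a limma adjusted p of 0.00908. The probes did not order the rats alike. On the second probe the largest differences were in animals 17 (1.51), 9 (1.28) and 24 (1.15), of which 17 and 24 had been among the 3 smallest on the brighter probe (0.72 and 0.03). Its letters are shown, with the coordinates chr4:120432206-120432265, because the size of the Tgfa change depends on which probe is read; the mean of both was 0.98, under 2-fold.
Tgfa second probe: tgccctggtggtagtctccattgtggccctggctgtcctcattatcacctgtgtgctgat
The Tgfa promoter window, chr4:120175469-120175768 of GRCr8, plus strand, is set beside that of Areg because both genes rose. It held GC boxes on the minus strand and none of the other motifs.
Tgfa: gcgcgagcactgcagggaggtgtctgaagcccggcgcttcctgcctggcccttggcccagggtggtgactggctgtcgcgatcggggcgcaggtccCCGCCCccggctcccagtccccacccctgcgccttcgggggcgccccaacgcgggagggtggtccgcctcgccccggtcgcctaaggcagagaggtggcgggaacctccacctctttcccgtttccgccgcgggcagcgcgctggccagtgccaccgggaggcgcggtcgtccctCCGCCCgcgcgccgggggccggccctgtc

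Neuregulin 1 (Nrg1), the ligand of ERBB3 and ERBB4, was the remaining ligand called, on a probe at chr16:64093933-64093992 of rn4. Normal values ran from -3.77 through -2.59 to -1.24 and OSCC values from -3.55 through -0.44 to 1.18. The difference was 1.90 ± 0.44 (SE, n = 11 pairs; 95% interval 0.95 to 2.85), or 3.73-fold, with a limma adjusted p of 0.00555. It was positive in 10 of 11 pairs, from 0.42 in animal 17 to 4.53 in animal 11, and -1.13 in animal 24. The OSCC of animals 17, 21, 22 and 24 lay below the brightest normal piece, that of animal 16, so the tissues overlapped.

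**Figure D2:**
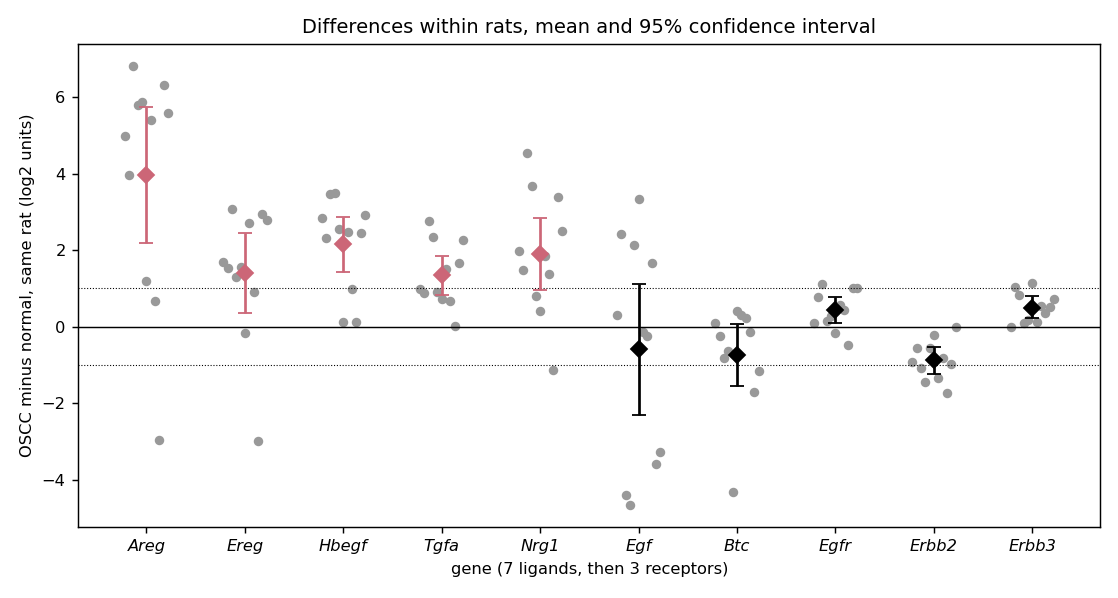
Difference between OSCC and normal tongue of the same rat in log2 units for each gene. Grey points are the 11 rats, diamonds and bars the mean and its 95% confidence interval from limma, red for genes called higher, and dotted lines mark 2-fold. The intervals of the 5 called ligands lie above 0, and the points of Egf fall on both sides of 0, from -4.66 to 3.33.

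Egf, the founding member of the ligands and a product of salivary glands, did not differ on average but had the widest OSCC spread of the 10. On the probe at chr2:227104446-227104505 of rn4 normal pieces lay within -2.80 to -1.79. The OSCC values were -2.17 in animal 4, -0.25 in 9, -6.20 in 11, -6.53 in 13, -0.67 in 16, 1.18 in 17, -2.29 in 21, -2.14 in 22, -0.80 in 24, -5.51 in 25 and -5.80 in 26. In animals 9, 16, 17 and 24 the OSCC exceeded all normal pieces, and in animals 11, 13, 25 and 26 the probe was not well above background. With these bounds entered at their measured values, the mean difference was -0.59 ± 0.79 (SE, n = 11 pairs; 95% interval -2.30 to 1.12), with a limma adjusted p of 0.547.

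A second Egf probe, 19.28 kb away on rn4 at chr2:227123727-227123786, behaved alike: the same 4 OSCC were not well above background and its difference was -0.12 (95% interval -1.65 to 1.42, limma adjusted p 0.903). On it the differences of animals 9, 16, 17 and 24 were 2.84, 1.82, 3.51 and 2.05, and those of animals 11, 13, 25 and 26 were -2.18, -3.53, -4.23 and -2.37. Its letters are shown because it is a separate reading of the same split.
Egf second probe: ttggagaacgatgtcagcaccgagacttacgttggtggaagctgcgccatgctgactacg

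Markers of other cell types moved with this split. The 4 rats whose OSCC lost Egf signal had the largest falls of the summed skeletal muscle markers, from -4.32 to -3.03, against -2.04 to 0.97 in the other 7. The 4 rats with raised Egf had serous gland sums of 11.23 to 12.62 and mucous gland sums of 1.56 to 5.35 in OSCC, while the 4 with lost Egf had 1.44 to 7.16 and -4.29 to -2.29. Animal 4 had a serous gland sum of 10.46 with little change of Egf (0.31). Animals 21 and 22 also had little change of Egf (-0.13 and -0.24). Their serous gland sums, 6.33 and 2.72, lay within the range of the rats with lost Egf. Their mucous gland sums were 2.41 and -3.93, so gland sums did not separate lost from little-changed Egf. The part of muscle and gland content in the Egf values was not tested.

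Btc, an EGFR and ERBB4 ligand, passed the background test on a single normal array, that of animal 16 (-2.34), and on 0 in OSCC. The other 10 normal values lay from -6.77 to -5.28. Its limma adjusted p was 0.123, and no fold is given because no OSCC array measured it.

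Among the receptors, Erbb2 stood out by its direction. ERBB2, the shared partner of the family, was read on 3 probes, of which the chosen one lies at chr10:87242482-87242541 of rn4. Its normal values ran from 1.10 through 1.64 to 2.16. OSCC values ran from 0.06 through 0.80 to 1.09, so every OSCC lay below every normal piece. Such a separation with OSCC lower held for 0.960% of all named genes. The difference was -0.88 ± 0.16 (SE, n = 11 pairs; 95% interval -1.23 to -0.53), a 1.84-fold lower signal, with a limma adjusted p of 0.00159 and 11 of 11 pairs lower. Single pairs ranged from -1.74 in animal 24 to -0.01, almost no change, in animal 26. The mean difference did not reach 2-fold and was therefore not called. After scaling to the array median it was -1.08 and passed.

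The other Erbb2 probes were read as checks. A probe 0.25 kb away gave -0.97 ± 0.15 (SE, n = 11 pairs), 1.96-fold lower, with a limma adjusted p of 0.000691, and also separated the tissues, with normal values from -0.89 to 0.01 and OSCC values from -1.95 to -1.10. The third probe, 4.11 kb upstream of the first at chr10:87238370-87238429, passed the background test on 1 normal and 6 OSCC arrays, so that most of its values were bounds. It is shown because it was too dim to measure the difference, and nothing is read from its direction.
Erbb2 dim probe: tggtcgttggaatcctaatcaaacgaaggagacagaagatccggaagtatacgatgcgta
The promoter window of Erbb2, chr10:83907351-83907650 of GRCr8, plus strand, is shown as that of the member that fell. It held 1 GC box, 98 bases before the start, and none of the other motifs.
Erbb2: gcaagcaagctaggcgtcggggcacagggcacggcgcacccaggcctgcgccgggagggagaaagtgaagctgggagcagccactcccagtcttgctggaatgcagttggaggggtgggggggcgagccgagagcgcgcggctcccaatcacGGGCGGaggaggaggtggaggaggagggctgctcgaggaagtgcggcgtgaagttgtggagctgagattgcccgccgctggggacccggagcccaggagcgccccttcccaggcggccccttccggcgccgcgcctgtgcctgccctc

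EGFR (Egfr), the receptor of most of these ligands, was slightly higher on its probe at chr14:97788051-97788110 of rn4. Normal values ran from -2.46 through -2.08 to -1.43 and OSCC values from -2.71 through -1.44 to -0.93. The difference was 0.44 ± 0.16 (SE, n = 11 pairs; 95% interval 0.09 to 0.78), 1.35-fold, with a limma adjusted p of 0.0425, and 9 of 11 pairs were higher. Animals 17 (-0.17) and 24 (-0.47) were the exceptions. The adjusted p was under 0.05 in only 9 of 26 alternatives and 0.217 after scaling to the array median (range 0.0146 to 0.421), so this small difference is not firm.

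ERBB3 (Erbb3), which has little kinase activity of its own and signals through its partners, was 0.50 ± 0.13 higher (SE, n = 11 pairs; 1.42-fold, limma adjusted p 0.0114). On its probe, at chr7:1858095-1858154 of rn4, normal values ran from -2.22 through -1.96 to -1.15 and OSCC values from -2.09 through -1.22 to -0.71, overlapping widely. The difference was largest in animal 17 (1.14) and was -0.01 in animal 4.

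The rats differed from each other in the ligands. Animals 17, 22 and 24 had the smallest Areg, Ereg and Hbegf differences, and animal 11 the largest for Areg, Ereg, Tgfa and Nrg1. In animal 24 the differences were -2.96 for Areg, -3.00 for Ereg and -1.13 for Nrg1. The OSCC of that animal also had the lowest basal squamous sum, 5.06 against 7.29 to 9.05 in the other 10, and a neutrophil marker difference of -0.58 against 1.80 to 7.57. The whole arrays of these rats also stood apart. The differences of a pair over all probes correlated with the mean of the other pairs at 0.47 in animal 17, 0.21 in 22, 0.26 in 24 and 0.47 in 21, against 0.76 to 0.84 in the other 7. The OSCC of animals 17, 21, 22 and 24 had skeletal muscle sums of 9.81 to 11.66, against 6.30 to 8.76 in the other 7. Differences of their summed proliferation markers ran from -1.49 to -0.25, against 0.57 to 1.12 in the other 7. Animal 21 shared both although its Areg difference was 5.40. The part of these contents and of the whole-array pattern in the ligand values was not tested.

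**Figure D3:**
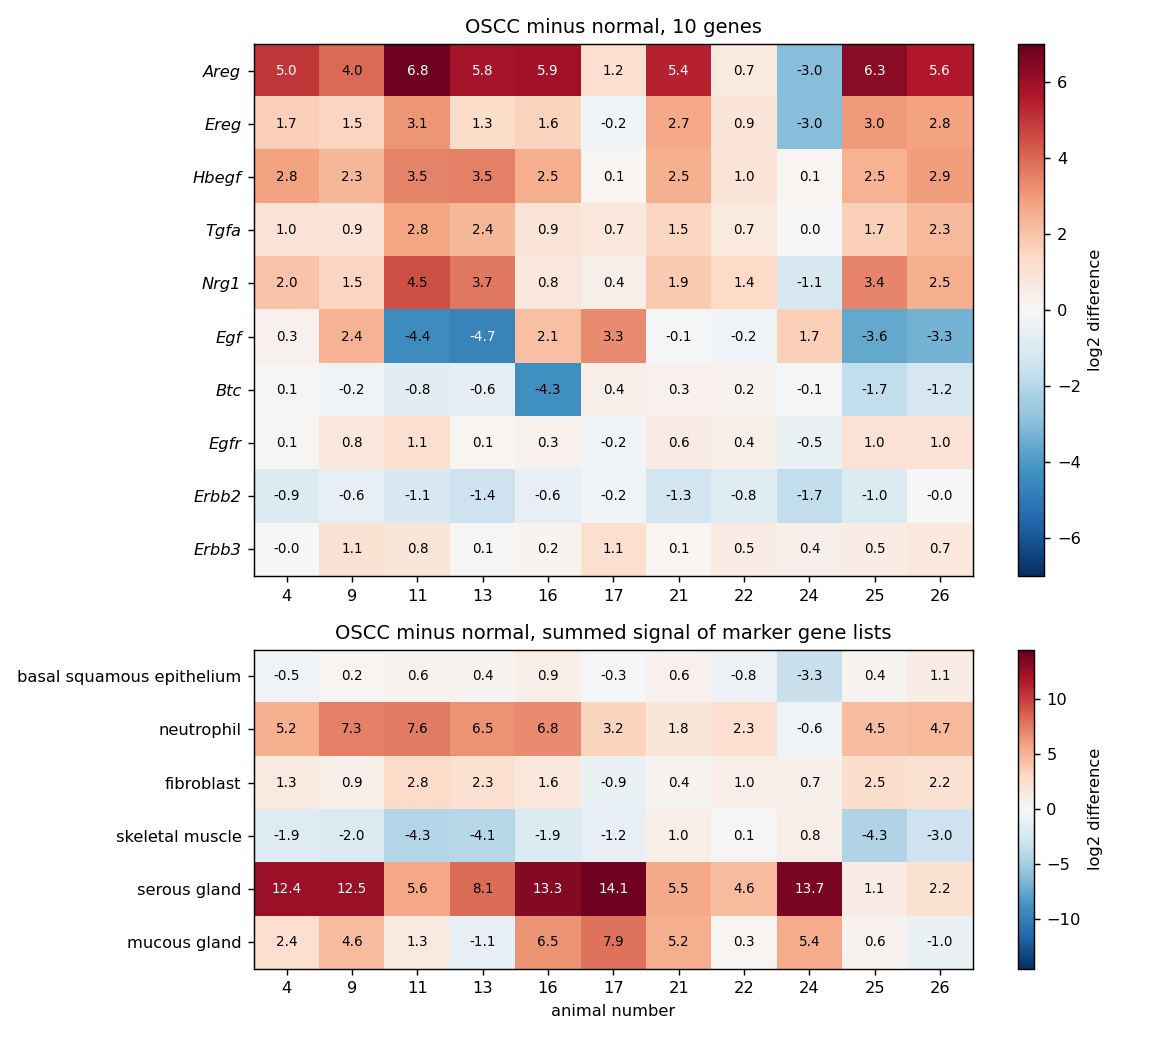
Differences between OSCC and normal tongue for each rat (columns, animal number) in log2 units, for the 10 genes (upper panel) and for the summed signal of 6 marker lists (lower panel, wider colour scale). Red is higher and blue lower in OSCC. Areg, Ereg and Nrg1 are negative in animal 24, and Egf is at -3.29 or lower in animals 11, 13, 25 and 26.

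Relations between the differences of 2 members were computed over the rats. Of 45 pairs of genes, 44 could be computed and 1 could not, because pairs of rats beyond a gap wider than 30% of a gene's range were left out and fewer than 6 remained. P-values came from permutation tests (100000 permutations, exact below 10 rats, two-sided) adjusted over the 44. Tgfa and Nrg1 had the closest relation, r = 0.92 and rho = 0.94 over 11 pairs (adjusted permutation p 0.00572 and 0.0044), and r = 0.84 without the 2 rats farthest from the Tgfa median. After quantile normalization it was 0.89 over 10 pairs. The relation rests on the brighter Tgfa probe: with the second probe, tried after the values were seen, r was -0.60 and rho -0.46 over 11 pairs (permutation p 0.0519 and 0.159, unadjusted), and the differences of both Tgfa probes correlated at -0.47. On the brighter probes it was the only relation of the 44 past 0.05 by both measures.

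Without animal 24, which lay beyond the gap, Areg and Ereg had r = 0.80 and rho = 0.76 over 10 pairs (adjusted permutation p 0.0403 and 0.135), and Egfr and Ereg r = 0.84 and rho = 0.77 (adjusted permutation p 0.0403 and 0.135). Without a further 2 rats r was 0.56 and 0.70. Erbb2 had no relation past the threshold with any member. Differences on 1 array share its scaling, which relates all genes of a rat to some degree.

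**Figure D4:**
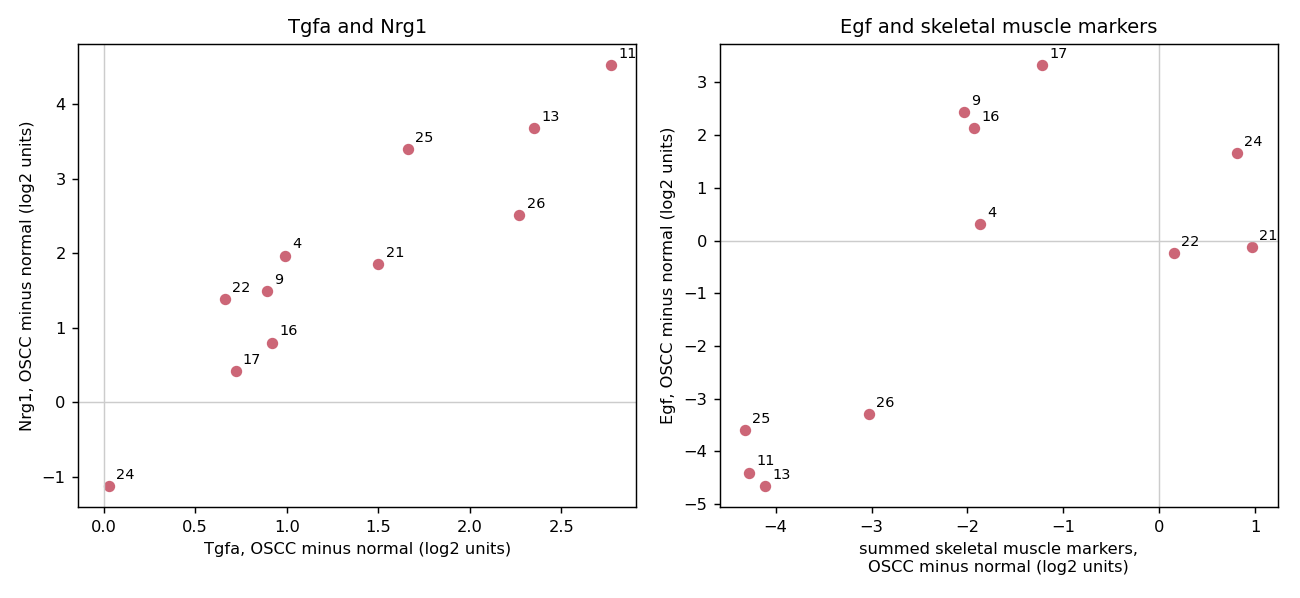
Left, difference of Nrg1 against that of Tgfa in 11 rats, both in log2 units, numbered by animal; the relation is r = 0.92 on the brighter Tgfa probe plotted and -0.60 on the second one. Right, difference of Egf against that of the summed skeletal muscle markers; animals 11, 13, 25 and 26 sit apart at the lower left.

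Genes outside the family that followed a member most closely over the rats were taken from 11632 genes well above background on at least 11 arrays, by Pearson's r of the differences, as a description. Nrg1 was followed by Tpm4 (0.97), Gch1 (0.96) and Slc35b4 (0.96), and Tgfa, on its brighter probe, by Vps37b (0.96), RGD1560257 (0.95) and RGD1566319 (0.95). Egfr was followed by Il1rl2 (0.93), Fam38a (0.93) and RGD1562617 (0.92). For Erbb2 these were Mad2l2 (0.93), LOC689744 (0.92) and Arhgef18 (0.92), and for Erbb3 Nucb2 (0.89), Clstn1 (0.87) and Abhd6 (0.86).

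For the members with a gap in their values, the genes were also picked by r over all 11 rats, 0.95 to 0.97, which includes the rats beyond the gap, and r is then given on the larger side of the gap alone. Over 10 rats Areg was followed by LOC686323, Epha2 and Flrt3 (0.94 each) and Ereg by Mpzl2 (0.88), Ltb4r (0.88) and Cdkn2b (0.90). Over 8 rats the values for Hbegf were 0.71 with Erich1, 0.86 with Arl6ip4 and 0.70 with Trex1. Egf, over 7 rats, had 0.87 with Slc25a23, 0.91 with Plcb4 and 0.92 with Rasd2.

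Around the members, 75 further genes of the pathway were listed by role and 72 were found on the array by gene symbol. Of these 12 were called higher, 1 lower and 59 not called, and their median difference was 0.37. Beside this count and those of the lists below, 7.48% of all named genes were called higher and 7.24% lower. The median difference over all named genes was -0.21. Among the other receptors and ligands, 0 of 4 were called: Erbb4, Nrg3 and Nrg4 failed the background test on all 22, and Nrg2 differed by 0.42 (limma adjusted p 0.149). Epigen was not counted among the 4, because its symbol Epgn was not found. The uncalled probe described as similar to epigen is given above.

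The list of proteases that release the ligands, with the iRhoms added, had 2 of 9 called higher and 0 lower. Adam10, the sheddase known for releasing EGF and betacellulin, passed the background test on 0 normal and 11 OSCC arrays and was at least 2.24-fold higher in OSCC (limma adjusted p 0.000151). Adam19, a sheddase known to act on neuregulins, was higher by 1.43 ± 0.23 (SE, n = 11 pairs, limma adjusted p 0.00088) without overlap between the tissues. Adam17, the main sheddase of amphiregulin, TGF-alpha and heparin-binding EGF, was higher by 0.40 (limma adjusted p 0.0325) and not called. The iRhoms Rhbdf2 and Rhbdf1 differed by 0.90 and -0.51 (limma adjusted p 0.0033 and 0.0103), both under 2-fold.

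Inhibitors and feedback genes had 3 of 19 called higher and 0 lower. Dusp5, a phosphatase of nuclear ERK, was higher by 1.04 ± 0.25 (SE, n = 11 pairs, limma adjusted p 0.00619). The Ras-route inhibitors Spred1 and Spred3 were called (limma adjusted p 0.00799 and 0.000632) although they passed the background test on 0 normal and only 5 and 8 OSCC arrays, so no fold is given. Errfi1, an EGFR inhibitor, was higher in 11 of 11 pairs by 0.40 (limma adjusted p 0.0156), under 2-fold. Lrig1, which promotes receptor breakdown, differed by -0.10 (limma adjusted p 0.662).

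Of the relay genes between receptor and nucleus, 3 of 25 were called higher and 1 lower. Gab1, a docking protein of EGFR, was at least 1.69-fold higher (limma adjusted p 6.2e-05), having passed the background test on 0 normal and 10 OSCC arrays. The PI3-kinase subunits Pik3cb and Pik3r1 were higher by 1.21 ± 0.16 and 1.03 ± 0.18 (SE, n = 11 pairs, limma adjusted p 0.000369 and 0.00121). Araf, a kinase of the RAF group, fell by 1.15 ± 0.26 (SE, n = 11 pairs, limma adjusted p 0.00462) in 10 of 11 pairs. Mapk3, the gene of the kinase ERK1, was higher by 0.78 in 11 of 11 pairs (limma adjusted p 0.000875) without reaching 2-fold.

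Response genes of the ERK route, which growth factor signals are known to induce, had 4 of 15 called higher and 0 lower. Plaur, the urokinase receptor, was higher by 2.63 ± 0.61, Phlda1 by 2.37 ± 0.36, and the AP-1 subunits Fosl1 by 2.23 ± 0.60 and Fos by 1.34 ± 0.37 (SE, n = 11 pairs), with limma adjusted p of 0.00564, 0.0006, 0.0131 and 0.0134. Etv5, a factor usually induced by ERK, differed by -0.80, lower in 11 of 11 pairs (limma adjusted p 0.000875). Myc and Etv4 differed by 0.12 and 0.01 (limma adjusted p 0.611 and 0.981).

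**Figure D5:**
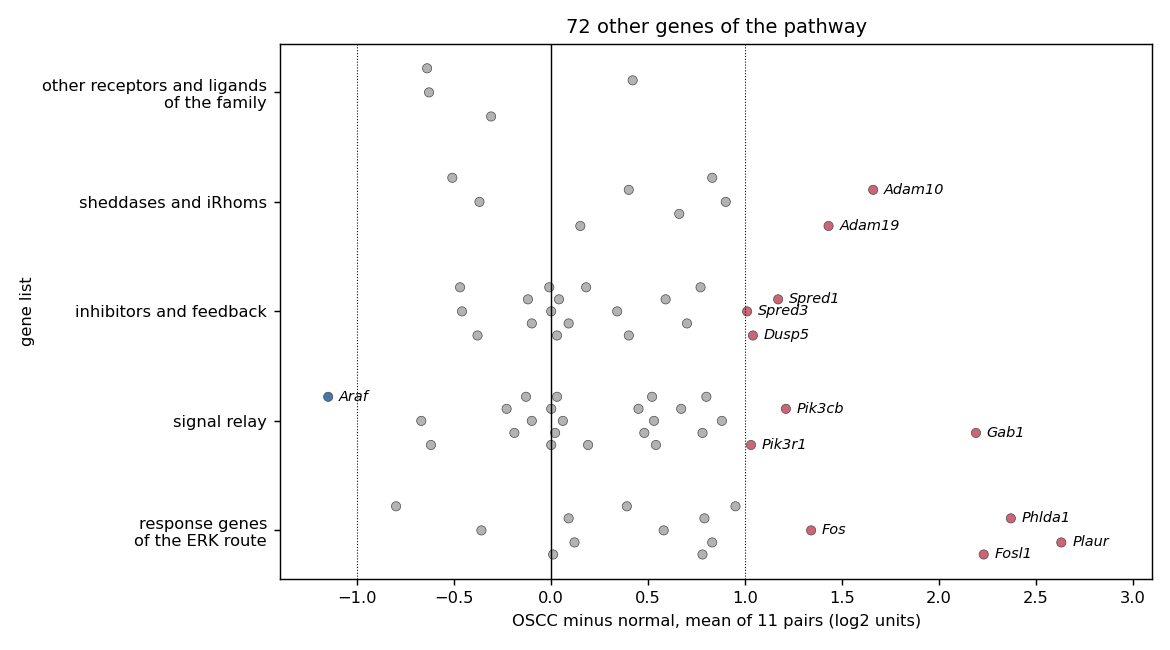
Mean difference between OSCC and normal tongue over 11 pairs, in log2 units, for the 72 other genes of the pathway by list; vertical position within a list has no meaning. Red points were called higher, the blue point lower, and dotted lines mark 2-fold. Named points are the 13 called genes, 4 of them response genes of the ERK route.

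Scan day was examined on the members. In the pairs of animals 4 and 9, scanned on 1 day, the mean differences were 4.48 for Areg, 2.57 for Hbegf, 1.73 for Nrg1, 1.61 for Ereg, 0.94 for Tgfa, -0.75 for Erbb2, 0.44 for Egfr and 0.52 for Erbb3, all in the direction seen over 11 pairs. Egf was 1.37 and thus of opposite sign, and Btc -0.07. In the 9 pairs scanned on different days they were 3.86, 2.06, 1.94, 1.35, 1.43, -0.91, 0.44 and 0.50 in that order, with -1.02 for Egf and -0.87 for Btc. With scan day as a term the members' differences are those of the same-day pairs, and 0 of 10 were called at an adjusted p under 0.05 (2 by an unadjusted p), with 3 probes called on the whole array.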

How the data were processed

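RNA of 22 tongue pieces was hybridised to 22 arrays in 1 colour (Agilent rat 4x44K). The headers of the scanner output gave Feature Extraction software version 9.5.3.1 and the rn4 annotation. The deposited intensity values are its processed signals, background-subtracted by the authors' scanner software. The authors' own scaled values, a deposited ratio to the array's 75th percentile floored at 0.01, served as an alternative. Among the brighter of these values, 99.6% matched the scanner signals within 2%. The dimmer ones, most of the values on each array, were not compared. From the intensities, control spots and outlier-flagged spots (0.975%) were dropped, spots of a probe averaged, log2 taken and the array's 75th percentile subtracted. No expression filter was applied. Normal arrays had 48.4% to 56.1% and OSCC arrays 52.3% to 65.5% of probes well above background, and 22 arrays limit the precision.

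OSCC and normal pieces of 1 rat were compared by a limma fit (version 3.58.1, R version 4.3.3, rat and tissue as terms) over all 30367 probes, tested on simulated data, with Benjamini-Hochberg adjustment over all probes. The study's methods used a paired t-test at 2-fold, which was run as an alternative. Each gene was represented by its brightest probe, every member is named, of other lists the called genes are named (at most 6 a list), and the 3 genes closest to each member. Where a tissue was nowhere above background, a fold is a lower bound against the higher of the array's lowest signal well above background and the probe's own. Relations and figures used Python 3.11.15, SciPy 1.17.1 and matplotlib 3.10.9. Pairing follows the rat: each animal number is 1 rat with both tissues. Deviations of same-rat pieces from their group means correlated from -0.21 to 0.24 (median -0.02). The replicates are separate animals. Uncalled genes of the lists and the window around Areg were named after their values were seen. The members and lists were chosen with earlier results of these data known. Positions in exons or introns were not given in the sources used here.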

Additional observations from a re-analysis of the deposited data

How the results depend on the processing

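The number of members called higher stayed at 4 or 5 under every alternative for which it was counted except scan day as a further term, where it was 0, and leaving out 1 pair at a time gave 4 to 5. The number called lower was 0 throughout, leaving out 1 pair included (0 to 0), except 1 (Erbb2) after scaling to the array median. Of the other pathway genes, 12 were called higher, 10 to 16 without 1 pair, 3 with normexp background correction, 19 without the pairs of animals 21, 22 and 24, and 0 with scan day; 1 was called lower, 1 to 1 without 1 pair, and 0 with scan day. With scan day as a term only the 2 same-day pairs inform the tissue difference; for normexp and the 3 omitted pairs the cause was not tested. Without the rat as replicate block the same genes were called as in the paired fit: 5 members higher, 0 lower, 12 other genes higher and 1 lower. The relation of Tgfa and Nrg1 over rats turned from r = 0.92 to -0.60 on the second Tgfa probe, an alternative chosen after seeing the data; the cause was not tested. Of 26 alternatives with an adjusted p, Ereg was called in 14 and Tgfa in 23 (0.96 with normexp, 0.98 as the mean of its probes). Areg, Hbegf and Nrg1 were called in 25 and lost the call with scan day as a term (4.48, 2.57 and 1.73, highest adjusted p of their alternatives 0.131, 0.0855 and 0.253; lowest 0.000111, 7.9e-05 and 0.00119). Erbb2 had an adjusted p under 0.05 in 25 and Erbb3 in 23 of them. Egf turned from -0.59 to 1.37 with scan day and in the same-day pairs; the cause was not tested. Directions of the members other than Egf and Btc held under all alternatives run. Btc was too dim for a direction to be read. Dim probes, Btc and the third Erbb2 probe above all, carry bounds rather than levels.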
